A study of Mus musculus with 12 samples.

Results

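The genes described here are 10 regulators of the step from G1 into S phase: the Cip/Kip inhibitors Cdkn1a (p21), Cdkn1b (p27) and Cdkn1c (p57), the INK4 inhibitors Cdkn2a (p16 and p19ARF), Cdkn2b (p15) and Cdkn2c (p18), the D-type cyclins Ccnd2 and Ccnd3, and the kinases Cdk4 and Cdk6. They were chosen by name, and all 10 were found among the 24906 genes listed in each of the expression tables. The question was which inhibitor, if any, moved with proliferation genes when SMAD4 was put back into Smad4-deficient tumor organoids.

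RNA-Seq was performed on 12 libraries of small intestinal organoids, which are epithelial cell clusters grown from tissue in culture. All libraries were labelled with the genotype Smad4KO;BRAFV600E/+;pINDUCER-SMAD4, so untreated controls had the same Smad4 deletion, activated BRAF allele and lentiviral construct as the dox libraries. The tumors arose in mice in which Villin-CreERT2, a tamoxifen-activated recombinase of the intestinal epithelium, deleted Smad4. The construct expresses SMAD4 when doxycycline (dox) is added, and dox was given at 4 µg/mL for 48 h. Of the 12 libraries, 6 came from organoids embedded in BME, an extract of basement membrane in which they grow in 3D. Lines 682, 700 and 889 were each sequenced untreated in BME, lines 700 and 889 also with dox, and line 682 also under a treatment label that adds the word mock to dox. On tissue culture plastic, lines 560, 700 and 889 were each sequenced untreated and with dox. The title and the treatment label of the mock library conflict, and results in BME are given with and without it where that matters. The label of the mock library also gives dox at 4 µg/mL. Elsewhere dox was present only with induction, so the drug and SMAD4 cannot be told apart except as far as the mock library bears on it. Per the study's methods, tamoxifen was given to young adult mice. A figure legend of the study puts the organoids imaged there some months after tamoxifen, and no interval is given for the sequenced lines.

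The induced gene was checked first. Smad4 was at 6.23 to 8.88 FPKM in untreated BME libraries, 17.2 and 27.3 FPKM with dox, and the mock library had 10.3 FPKM. In plastic libraries it was at 1.54 to 4.76 FPKM untreated and 18.1 to 73.6 FPKM with dox. FPKM counts sequenced fragments relative to transcript length and to a scale for each library. The deposited values already had near-equal median ratios between libraries, with log2 shifts of -0.000944 to 0.0165. The libraries held about 11300000 to 12800000 reads in BME and 13400000 to 17400000 on plastic, as rebuilt from the steps between low values. Of 10 intestinal epithelial markers, all were above 1 FPKM in untreated and dox BME libraries, and Cdx1 alone was under 1 FPKM in the mock library and on plastic. The summed level of these markers was 4240 to 5244 FPKM in untreated and 7921 to 9864 FPKM in dox BME libraries, against 13256 to 14543 and 11909 to 17390 FPKM on plastic, and their part in the results below was not tested. The 10 fibroblast markers summed to 0.272 to 7.17 FPKM, and the 10 immune markers to 14.8 to 65.0 FPKM. Ptprc and Cd3e were under 1 FPKM in every group, whereas Cd68 and Cd14 reached 1 FPKM or more in every group. The 6 endothelial markers summed to 2.17 to 16.1 FPKM, with Pecam1, Cdh5 and Kdr under 1 FPKM in every group, whereas Esam reached 1 FPKM or more in every group.

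In a cycling cell, D-type cyclins bind CDK4 or CDK6 and phosphorylate RB, which releases E2F factors to switch on genes of DNA replication. INK4 proteins bind CDK4 and CDK6 and block their partnership with cyclin D, whereas Cip/Kip proteins bind cyclin-CDK complexes and chiefly restrain CDK2. In epithelial cells, TGFβ signalling through SMAD proteins is known to slow G1 with induction of Cdkn2b and Cdkn1a and repression of Myc. Oncogenic BRAF signalling is known to raise Cdkn2a, a common barrier in serrated tumors.

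The promoters of Cdkn1a, Cdkn2a and Cdkn2b are shown, since these are the inhibitors among the 10 genes that were higher or lower in all 5 dox pairs. That of Cdkn2d, an INK4 gene outside the 10 that was also higher in all 5, is shown beside them. Sequences are from RefSeq (GRCm38.p6), each the 250 bases before a start, 5′ to 3′ on the strand of the gene. Capitals mark CAGAC or its complement GTCTG (the SMAD box), GGCGC or its complement GCGCC (a GC-rich SMAD motif), and a pair of CATG cores 6 bases apart, as in a p53 element. Motifs were searched on both strands, and marks can overlap. In Cdkn1a, on chromosome 17 (+ strand), the upstream start is preceded by chr17:29090729-29090978 and the downstream start by chr17:29093519-29093768.
Cdkn1a, upstream start: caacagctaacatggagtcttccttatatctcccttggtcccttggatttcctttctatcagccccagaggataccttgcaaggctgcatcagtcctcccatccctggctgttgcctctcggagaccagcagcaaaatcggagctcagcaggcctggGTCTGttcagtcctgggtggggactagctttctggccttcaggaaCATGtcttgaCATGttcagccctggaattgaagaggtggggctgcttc
Cdkn1a, downstream start: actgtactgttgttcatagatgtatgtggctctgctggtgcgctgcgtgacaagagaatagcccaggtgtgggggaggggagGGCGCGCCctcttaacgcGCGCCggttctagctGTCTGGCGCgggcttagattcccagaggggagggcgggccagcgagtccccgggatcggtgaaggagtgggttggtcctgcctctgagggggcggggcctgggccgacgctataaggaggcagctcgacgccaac
For Cdkn2a (chromosome 4, - strand), the windows are chr4:89282193-89282442, ahead of the inner start, and chr4:89294620-89294869, ahead of the outer start. That of Cdkn2b (chromosome 4, - strand) is chr4:89311033-89311282, and that of Cdkn2d (chromosome 9, - strand) is chr9:21291210-21291459.
Cdkn2a, inner start: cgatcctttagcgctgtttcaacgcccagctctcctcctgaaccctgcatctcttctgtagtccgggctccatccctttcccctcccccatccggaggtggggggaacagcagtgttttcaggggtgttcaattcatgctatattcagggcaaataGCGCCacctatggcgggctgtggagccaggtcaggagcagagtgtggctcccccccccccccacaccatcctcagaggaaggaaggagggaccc
Cdkn2a, outer start: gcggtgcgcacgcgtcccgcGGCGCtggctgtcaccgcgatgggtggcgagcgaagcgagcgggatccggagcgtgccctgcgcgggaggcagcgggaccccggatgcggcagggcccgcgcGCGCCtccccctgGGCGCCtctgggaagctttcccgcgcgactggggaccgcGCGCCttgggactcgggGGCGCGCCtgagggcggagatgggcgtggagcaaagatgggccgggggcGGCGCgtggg
Cdkn2b: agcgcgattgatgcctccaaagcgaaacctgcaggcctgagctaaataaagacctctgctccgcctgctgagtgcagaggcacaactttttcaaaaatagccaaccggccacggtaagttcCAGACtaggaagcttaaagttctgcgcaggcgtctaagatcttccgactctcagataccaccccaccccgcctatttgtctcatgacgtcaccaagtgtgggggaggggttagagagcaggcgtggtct
Cdkn2d: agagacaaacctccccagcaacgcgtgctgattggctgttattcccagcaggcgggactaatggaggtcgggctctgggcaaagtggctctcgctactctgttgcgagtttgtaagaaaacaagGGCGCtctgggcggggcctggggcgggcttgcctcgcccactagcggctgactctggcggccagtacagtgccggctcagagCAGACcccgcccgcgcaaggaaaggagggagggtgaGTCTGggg

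The CATG pair occurred 48 bases before the upstream Cdkn1a start, and this motif was found in 0.49% of 32851 promoters of the same length. The SMAD box was found in both Cdkn1a windows, in Cdkn2b and at 2 places in Cdkn2d, and in neither Cdkn2a window, beside 42.2% of all promoters. The GC-rich motif occurred 4 times at the downstream Cdkn1a start and 8 times at the outer Cdkn2a start, and it was found in 32.0% of all promoters. These matches describe the letters only. RefSeq promoters were matched for 8 of the 10 genes, and those of Ccnd2 and Cdkn1c were not analysed here. Gene positions below are on NCBIM37 (mm9), the build named for the files, and are not on the scale of the promoter windows.

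Across the 10 genes, Cdkn1a was the one inhibitor that was higher with dox in 5 of 5 same-line pairs, while Cdkn2a, Cdkn2b, Cdk4 and Cdk6 were lower in 5 of 5. Over all genes tested in both tables, 8.7% were higher and 8.06% were lower in all 5 pairs. Bulk libraries cannot tell fewer cells of a type from less RNA per cell. On plastic, 1 of the 10 genes (Cdkn1a) had every dox library above every untreated library and 5 (Cdkn2a, Cdkn2b, Ccnd2, Cdk4 and Cdk6) had every dox library below, against a background of 7.87% and 7.26% of genes. In BME, Ccnd3 lay above and Cdk6 below all 4 control libraries, where the background was 6.33% above and 5.83% below. Without the mock library, Cdkn1a joined Ccnd3 above the untreated libraries, and the background was 8.13% above and 7.36% below. None of the 10 genes passed the limma test (adjusted p under 0.05 and a change over 1 on the log2 scale) in either environment, where 0.0231% of genes in BME and 0.0324% on plastic did. At an unadjusted p under 0.05, 5 of 10 were past on plastic (8.29% of all genes) and 1 of 10 in BME (4.09% of all genes). The BME gene was Cdk6. With the organoid line as a block, 2 of 10 were past in BME, Cdkn1a and Cdkn2a, and Cdk6 was not, where the share of all genes was not computed. The median change of the 10 genes was 0.06 in BME and -0.22 on plastic, beside -0.006 and 0.009 over all genes tested.

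**Figure D1:**
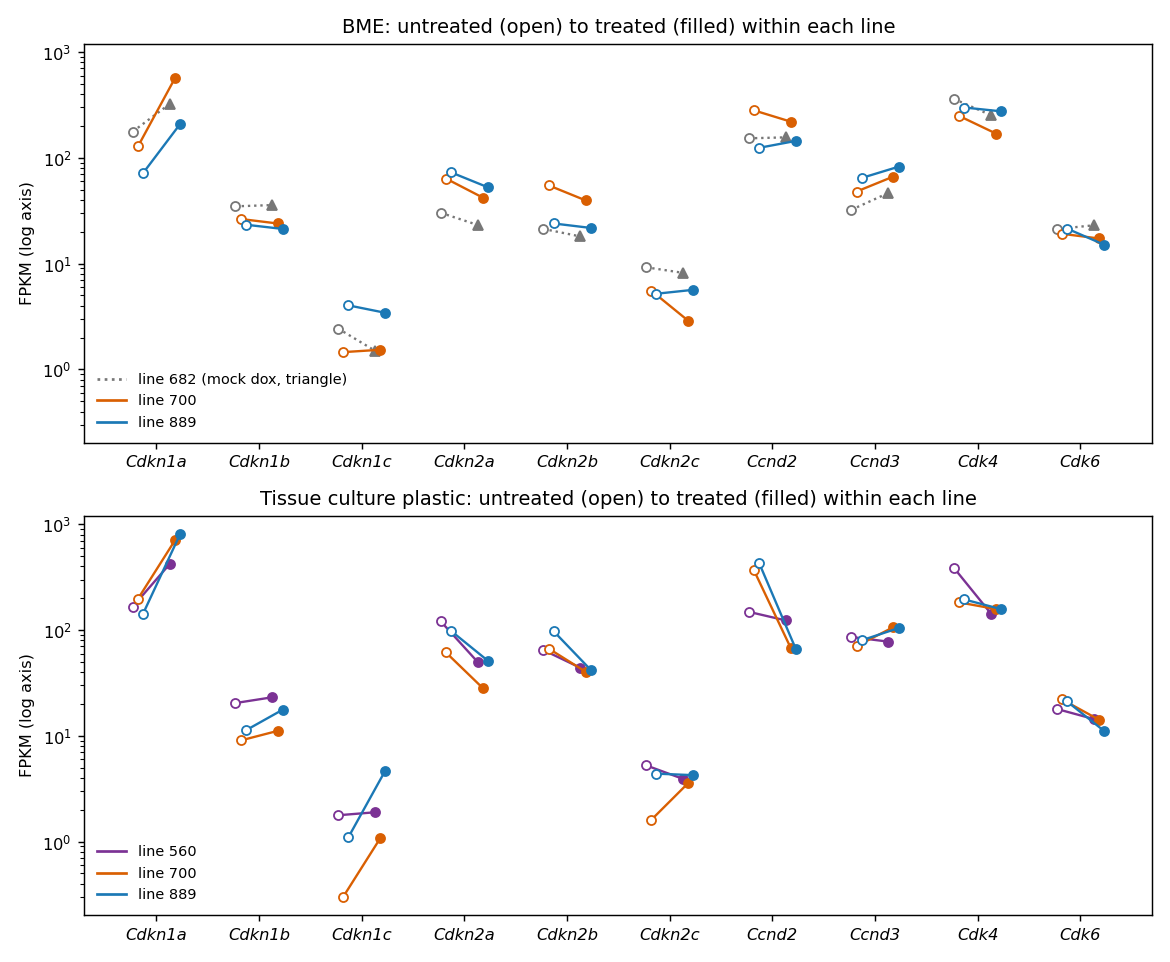
FPKM (log axis) of each gene in each library, with open circles untreated, filled circles dox and triangles the mock library, joined within a line, for BME (upper panel) and plastic (lower panel). Cdkn1a was higher in every filled symbol than in its partner, and Ccnd2 was far lower with dox in lines 700 and 889 on plastic (67.6 against 369 and 65.8 against 434 FPKM).

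Cdkn1a (ENSMUSG00000023067.7, chromosome 17, 29227924 to 29237667, + strand) encodes p21, the classic p53-induced inhibitor that also responds to SMADs. In BME, line 700 had 128 FPKM untreated against 565 with dox, and line 889 had 71.8 against 208 FPKM. The mock library of line 682 was at 324 FPKM against 177 FPKM untreated. On plastic the untreated and dox levels were 167 and 422 FPKM in line 560, 197 and 704 FPKM in line 700, and 143 and 804 FPKM in line 889. Thus the dox level was 2.53 to 5.63 times the untreated level on plastic and 4.41 and 2.90 times in BME, and the mock level was 1.82 times that of its untreated partner. All 3 dox libraries on plastic lay above the 3 untreated ones, whereas in BME the mock library lay above the dox library of line 889.

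The mean of Cdkn1a on plastic was 643 ± 198 FPKM with dox and 169 ± 27.3 FPKM untreated (SD, n = 3 each). The limma change was 1.88 (SE 0.30, 95% interval 1.16 to 2.60, unadjusted p = 0.000522, adjusted p = 0.157), the 41st smallest p of 12333 genes. In BME the mean was 387 ± 252 FPKM with dox (n = 2) and 175 ± 108 FPKM in the control arm (n = 4), and the limma change was 1.17 (SE 0.65, adjusted p = 0.959). Within lines, with the organoid line as a block, the BME change was 1.83 (SE 0.33, unadjusted p = 0.00279, adjusted p = 0.671). With the mock library left out it was 1.53. Leaving out 1 library moved the BME change to between 0.45 (without dox line 700) and 1.89 (without dox line 889), each from a dox arm of 1 library that is assumed to vary like the controls. Cdkn1a was higher in 6 of 6 pairs with the mock pair included, as were 6.85% of genes.

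Cdkn1b (ENSMUSG00000003031.8, chromosome 6, 134870419 to 134875531, + strand) encodes p27, which accumulates in quiescent cells. In BME, line 700 had 26.4 FPKM untreated against 24.0 with dox, and line 889 had 23.3 against 21.3 FPKM, with 34.8 and 35.8 FPKM in the mock pair. Plastic lines 560, 700 and 889 went from 20.4 to 23.2, from 9.04 to 11.1 and from 11.3 to 17.7 FPKM. It was therefore slightly lower with dox in both BME pairs and higher in the 3 plastic pairs, a pattern held by 2.61% of genes, and dox and untreated levels overlapped on plastic. Neither limma change passed (-0.38 in BME and 0.35 on plastic, adjusted p = 0.959 and 0.861). Within lines the BME change was -0.13, and leaving out 1 library moved the plastic change to between 0.12 (without untreated line 700 or dox line 560) and 0.67 (without untreated line 560).

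Cdkn1c (ENSMUSG00000037664.6, chromosome 7, 150644255 to 150646955, - strand) encodes p57, an imprinted inhibitor. It was the lowest of the 10 genes in every group mean. In BME it was at 1.46 and 1.53 FPKM in line 700 and at 4.03 and 3.43 FPKM in line 889, untreated and dox, and the mock pair was at 2.43 and 1.50 FPKM. On plastic it was at 1.78 and 1.90, 0.301 and 1.08, and 1.10 and 4.70 FPKM in lines 560, 700 and 889. The groups overlapped in both environments, and the limma change on plastic was 0.73 (SE 0.46, adjusted p = 0.742). It was 0.32 without dox line 889, 0.43 without untreated line 700, 1.21 with a pseudocount of 0.1 and 1.19 on rebuilt reads with limma-voom. At these levels the log2(FPKM + 1) scale understates the change within a line.

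Cdkn1a made up 72.4% to 98.3% of the summed FPKM of the 3 Cip/Kip genes in every library. Its share was higher with dox in each pair, going for example from 72.4% to 89.4% in line 889 in BME and from 88.2% to 94.4% in line 560 on plastic. FPKM is already per length, so these shares compare transcript levels rather than reads.

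Cdkn2a (ENSMUSG00000044303.5, chromosome 4, 88920377 to 88940557, - strand) gives rise to p16, which binds CDK4 and CDK6, and to p19ARF, which restrains MDM2. The deposited value covers the gene as a whole, so the transcripts were not separated. In BME, line 700 had 63.8 FPKM untreated against 42.1 with dox, and line 889 had 73.0 against 52.7 FPKM, and the mock pair went from 30.2 to 23.2 FPKM. In plastic lines 560, 700 and 889 the levels went from 121 to 49.9, from 61.5 to 28.3 and from 98.3 to 51.2 FPKM. All 6 pairs were lower with treatment, and all plastic dox libraries lay below all untreated ones.

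The limma change of Cdkn2a on plastic was -1.09 (SE 0.34, unadjusted p = 0.0169, adjusted p = 0.505), and within lines its unadjusted p was 0.00175 with an adjusted p of 0.148. In BME the control arm held the low line 682, and the change was 0.14 (SE 0.49, adjusted p = 0.985). Within lines it turned to -0.53 (unadjusted p = 0.0225, adjusted p = 0.671), and to -0.14 with the mock library left out.

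Cdkn2b (ENSMUSG00000073802.4, chromosome 4, 88952198 to 88956941, - strand) neighbours Cdkn2a and encodes p15, the INK4 inhibitor known for induction by TGFβ. In BME, line 700 had 55.0 FPKM untreated against 39.7 with dox, and line 889 had 24.0 against 21.8 FPKM, with 21.3 and 18.1 FPKM in the mock pair. Levels in plastic lines 560, 700 and 889 went from 64.7 to 44.0, from 67.0 to 40.5 and from 97.5 to 42.2 FPKM. Cdkn2b was lower with dox in all 5 pairs, and on plastic the dox libraries (40.5 to 44.0 FPKM) lay below the untreated ones (64.7 to 97.5 FPKM).

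The limma change of Cdkn2b on plastic was -0.82 (SE 0.22, 95% interval -1.33 to -0.30, unadjusted p = 0.00765, adjusted p = 0.415). In BME it was 0.13 (SE 0.48, adjusted p = 0.986), and it turned to -0.30 within lines and to -0.05 with the mock library left out.

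Cdkn2c (ENSMUSG00000028551.8, chromosome 4, 109333481 to 109339794, - strand) encodes p18, an E2F-responsive INK4 inhibitor. It was at 5.56 and 2.89 FPKM in line 700 and at 5.19 and 5.66 FPKM in line 889 in BME, untreated and dox, with 9.24 and 8.19 FPKM in the mock pair. On plastic it was at 5.26 and 3.92, 1.60 and 3.58, and 4.39 and 4.25 FPKM in lines 560, 700 and 889. It had no common direction, and the groups overlapped (limma change -0.63 in BME and 0.14 on plastic, adjusted p = 0.959 and 0.953). The BME change was -0.33 within lines, -0.24 without dox line 700 and -1.02 without dox line 889.

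A further INK4 gene, Cdkn2d, which encodes p19INK4d, was named by the rule for other G1 genes. In BME, line 700 had 5.32 FPKM untreated against 16.5 with dox, and line 889 had 8.64 against 22.2 FPKM, and the mock pair had 6.13 against 15.5 FPKM. Plastic lines 560, 700 and 889 went from 7.66 to 17.3, from 2.09 to 38.7 and from 3.18 to 29.1 FPKM. Every dox library lay above every control library in both environments. The limma change was 2.54 on plastic (SE 0.46, unadjusted p = 0.00106, adjusted p = 0.206) and 1.13 in BME (SE 0.40, unadjusted p = 0.0288, adjusted p = 0.959). Cdkn2d was named for its small p in these data, so its direction is a description. It was higher with dox in each pair, Cdkn2a and Cdkn2b were lower in each, and Cdkn2c was higher in 2 and lower in 3 of the 5.

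**Figure D2:**
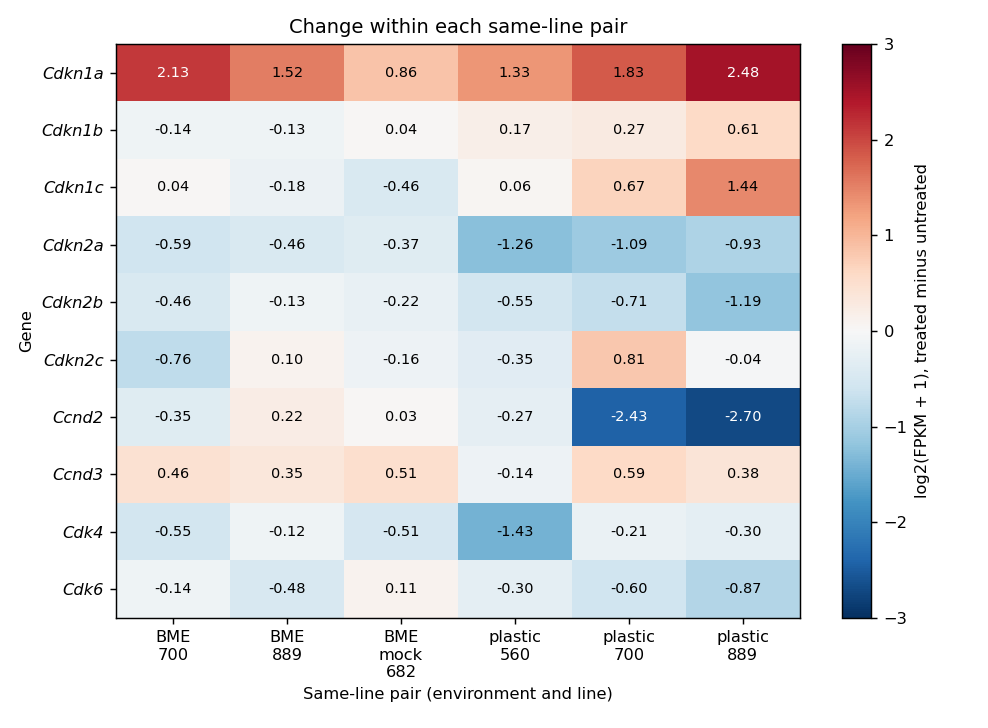
Change of log2(FPKM + 1), treated minus untreated, for each gene (rows) in each same-line pair (columns), red higher and blue lower. Cdkn1a was between 0.86 (mock) and 2.48, and Cdkn2a between -1.26 and -0.37, in all 6 pairs.

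Ccnd2 (ENSMUSG00000000184.9, chromosome 6, 127075797 to 127101066, - strand) encodes cyclin D2, a partner of CDK4 and CDK6. In BME it was at 281 and 220 FPKM in line 700 and at 124 and 145 FPKM in line 889, untreated and dox, and at 153 and 156 FPKM in the mock pair. On plastic, line 560 had 149 FPKM untreated against 123 with dox, line 700 had 369 against 67.6 and line 889 had 434 against 65.8 FPKM. The low dox levels on plastic were thus in lines 700 and 889, whose BME pairs were at -0.35 and 0.22 on the log2 scale, and line 560 already had a low level untreated.

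The limma change of Ccnd2 was -1.80 on plastic (SE 0.47, unadjusted p = 0.00692, adjusted p = 0.405) and 0.07 in BME (SE 0.35, adjusted p = 0.993). The difference between environments was -1.87 (SE 0.64, 95% interval -3.27 to -0.47, unadjusted p = 0.0138, adjusted p = 1.00). Ccnd2 was the 1 gene of the 10 past an unadjusted p of 0.05 for this difference, beside 2.53% of all genes, and at the adjusted threshold limma called 0 of the 10 and 0 of all 11977 genes (0.0%), as did limma-voom.

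Ccnd3 (ENSMUSG00000034165.8, chromosome 17, 47642000 to 47736632, + strand) encodes cyclin D3. Its level in BME line 700 was 48.0 FPKM untreated against 66.6 with dox, and line 889 had 64.5 against 82.5 FPKM, and the mock pair had 32.3 against 46.6 FPKM. In plastic lines 560, 700 and 889 the levels went from 86.1 to 77.7, from 70.5 to 107 and from 80.0 to 104 FPKM. Ccnd3 was higher with dox in 4 of the 5 pairs, line 560 being the exception, and the limma change was 0.66 in BME (SE 0.27, unadjusted p = 0.0503, adjusted p = 0.959; 0.41 within lines) and 0.28 on plastic (SE 0.21, adjusted p = 0.791; 0.42 without dox line 560). The ratio of Ccnd2 to Ccnd3 on plastic went from 5.24 to 0.634 in line 700, from 5.42 to 0.630 in line 889 and from 1.73 to 1.59 in line 560. Ccnd1, named after its values were seen because it is the remaining D-type cyclin, was at 250, 163, 254, 611 and 194 FPKM with dox against 268, 122, 256, 763 and 657 FPKM untreated, in the order BME lines 700 and 889, then plastic lines 560, 700 and 889.

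Cdk4 (ENSMUSG00000006728.6, chromosome 10, 126500590 to 126504976, + strand) encodes the main kinase partner of D-type cyclins. Its level in BME line 700 was 249 FPKM untreated against 170 with dox, line 889 had 299 against 275 and the mock pair 361 against 253 FPKM. Levels in plastic lines 560, 700 and 889 went from 386 to 143, from 183 to 158 and from 195 to 158 FPKM. Line 560 showed the widest gap within a pair. The dox libraries on plastic (143 to 158 FPKM) all lay below the untreated ones, yet the limma change of -0.65 did not pass (SE 0.32, unadjusted p = 0.0836, adjusted p = 0.649), and it was -0.30 without the untreated library of line 560. The BME change was -0.41 (SE 0.26, adjusted p = 0.959), and it was -0.061 without dox line 700 and -0.76 without dox line 889.

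Cdk6 (ENSMUSG00000040274.5, chromosome 5, 3343893 to 3523218, + strand) encodes the second D-cyclin kinase and was far less abundant than Cdk4. In BME it was at 19.2 and 17.3 FPKM in line 700 and at 21.5 and 15.1 FPKM in line 889, untreated and dox, and at 21.2 and 23.0 FPKM in the mock pair. Plastic lines 560, 700 and 889 went from 17.98 to 14.4, from 22.2 to 14.2 and from 21.2 to 11.2 FPKM. The dox libraries lay below all controls in both environments. The limma change was -0.37 in BME (SE 0.14, unadjusted p = 0.0370, adjusted p = 0.959) and -0.59 on plastic (SE 0.20, unadjusted p = 0.0208, adjusted p = 0.530).

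The order of levels among the 10 genes differed between arms. Untreated BME libraries had Cdk4 first at a mean of 303 FPKM (range 249 to 361), then Ccnd2 at 186 (124 to 281) and Cdkn1a at 126 FPKM (71.8 to 177), with neighbouring ranges overlapping. Untreated plastic libraries had Ccnd2 at 317 FPKM (149 to 434), Cdk4 at 255 (183 to 386) and Cdkn1a at 169 FPKM (143 to 197), again overlapping. With dox, Cdkn1a was first in both environments. On plastic its range of 422 to 804 FPKM lay clear of Cdk4 at 143 to 158 FPKM, whereas in BME the ranges overlapped (208 to 565 and 170 to 275 FPKM). At the low end Cdkn2c and Cdkn1c were last in all 4 orders.

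As a ratio within a library, Cdkn1a over Cdk4 went from 0.515 to 3.33 in line 700 and from 0.240 to 0.756 in line 889 in BME, and from 0.492 to 1.28 in the mock pair. In plastic lines 560, 700 and 889 the ratio went from 0.431 to 2.95, from 1.08 to 4.46 and from 0.733 to 5.10. The ratio was higher in all 6 pairs. The sum of Cdkn2a, Cdkn2b and Cdkn2c, without Cdkn2d, over Cdk4 and Cdk6 had no such direction, at 0.464 and 0.453, 0.318 and 0.276 in BME and 0.472 and 0.621, 0.635 and 0.420, and 0.927 and 0.578 on plastic, untreated and dox in the same line order. With Cdkn2d added, the ratios were 0.484 and 0.541, and 0.345 and 0.352, in BME, and 0.491 and 0.731, 0.645 and 0.645, and 0.941 and 0.751 on plastic, so that both BME pairs were then higher with dox.

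**Figure D3:**
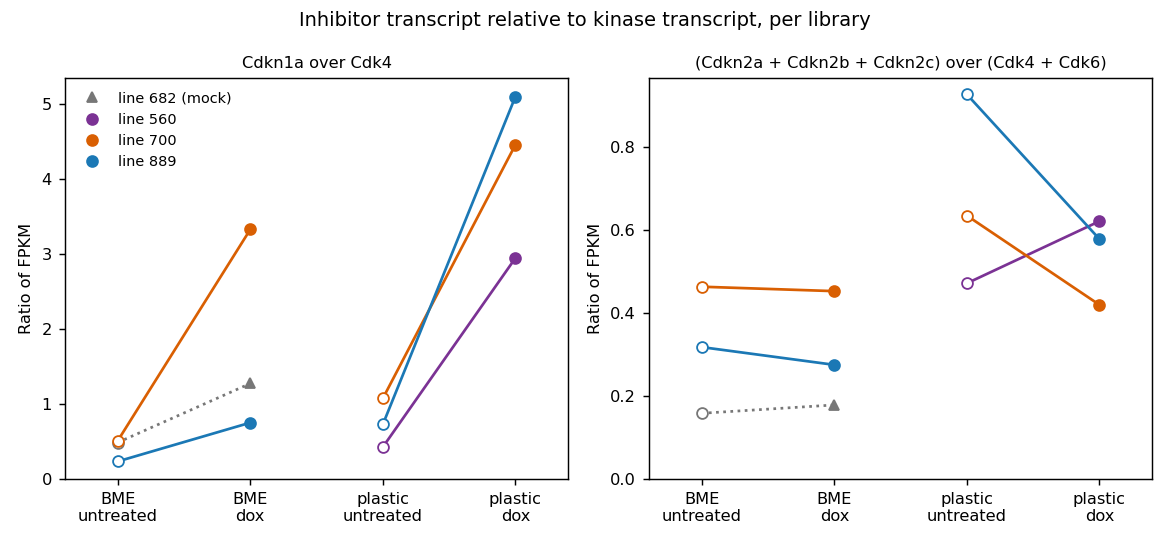
Ratio of FPKM in each library, Cdkn1a over Cdk4 (left) and Cdkn2a, Cdkn2b and Cdkn2c over Cdk4 and Cdk6 (right), joined within a line, with open circles untreated, filled circles dox and triangles mock. The left ratio was 2.95 to 5.10 with dox on plastic against 0.431 to 1.08 untreated, and the right ratio moved both ways.

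Genes of DNA replication and of mitosis were set beside these values. On plastic the median change was -0.67 over 36 S phase genes and -1.06 over 38 mitosis genes, with 35 and 38 of them below 0. At an unadjusted p under 0.05, 11 and 21 were lower and none was higher, and none was called. Of all genes on plastic, 48.9% were below 0 and 3.73% were lower at this p. In BME the medians were -0.62 and -0.64, with all 36 and 38 genes below 0 beside 51.0% of all genes. There were 2 and 1 genes lower at an unadjusted p under 0.05, namely Cdt1 and Dtl (-0.82 and -0.86, named after their values were seen) and Mki67 (-0.87, adjusted p = 0.959), beside 1.47% of all genes lower at this p. Cdc6, which loads the replicative helicase, was at -0.91 on plastic (adjusted p = 0.396), and Rrm1, a ribonucleotide reductase subunit, at -0.91 (adjusted p = 0.435). Ube2c and Cdca8, which act in mitosis, were at -1.27 and -1.13 (adjusted p = 0.342 and 0.396). Mki67, the Ki-67 proliferation marker, was at 20.7 and 9.68 FPKM in line 700 and at 26.2 and 17.6 FPKM in line 889 in BME, untreated and dox. On plastic it was at 8.31 and 1.64 FPKM in line 700 and at 11.6 and 2.08 FPKM in line 889, but at 7.65 and 15.5 FPKM in line 560. Pcna, the replication clamp, had no common direction (-0.23 in BME, -0.14 over the same-line pairs there, and -0.09 on plastic, adjusted p = 0.970 and 0.966 for BME and plastic).

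The pairs differed in how far these genes were lower. For the mitosis genes the median was -1.40 in plastic line 889, -1.23 in plastic line 700, -1.01 in BME line 700, -0.48 in plastic line 560, -0.04 in BME line 889 and 0.03 in the mock pair. Of the 38 mitosis genes, 38 were lower in each of the first 3 of these pairs, 30 in plastic line 560, 24 in BME line 889 and 16 in the mock pair. Of all 12333 genes tested on plastic, 6043, 6169 and 6146 were lower in lines 889, 700 and 560. Of all 12996 in BME, 6611, 6576 and 6646 were lower in line 700, line 889 and the mock pair. The S phase genes gave another order, with medians of -0.79, -0.60, -0.85, -0.61, -0.03 and -0.32 in the same order of pairs. In the mock pair 34 of the 36 S phase genes were lower, although its mitosis median was 0.03. With the pairs ordered by the mitosis median, the Cdkn1a change was 2.48, 1.83, 2.13, 1.33, 1.52 and 0.86. Line 889 in BME therefore had Cdkn1a at 2.90 times its untreated level with a mitosis median near 0. The Smad4 change, in the same order, was 3.12, 2.26, 1.28, 4.88, 1.97 and 0.19, so the pair with the highest Smad4 had the second lowest Cdkn1a change. Ccnd2 was much lower only in plastic lines 700 and 889, and not in BME line 700 (-0.35).

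**Figure D4:**
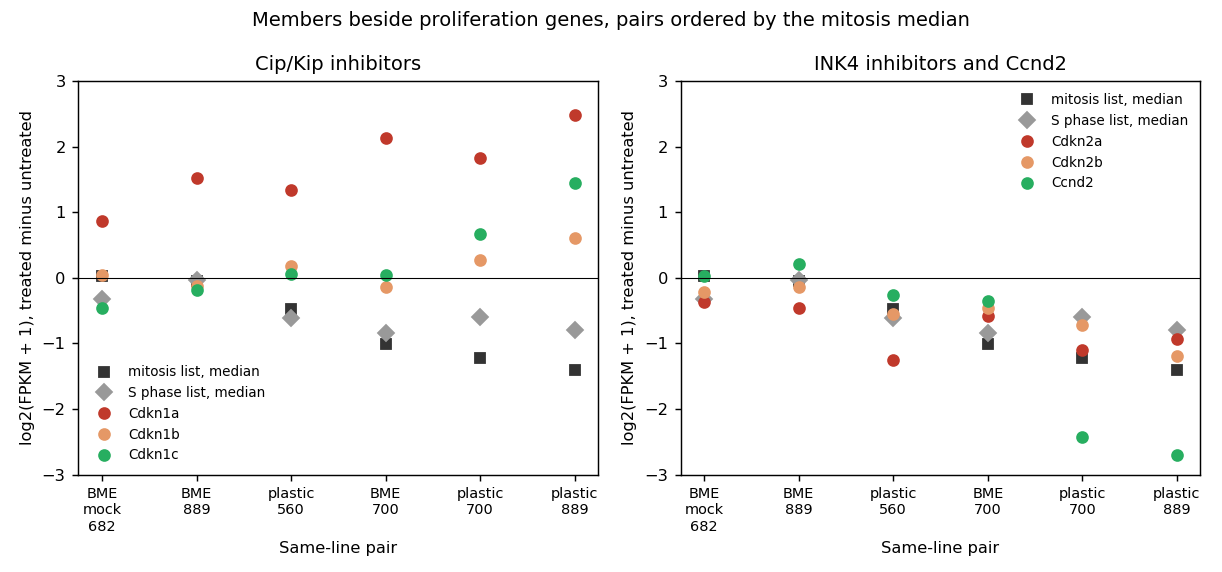
Change of log2(FPKM + 1), treated minus untreated, of Cip/Kip genes (left) and of Cdkn2a, Cdkn2b and Ccnd2 (right) beside the median of the mitosis and S phase genes (squares and diamonds), for 6 pairs ordered by the mitosis median. Cdkn1a lay above 0 in all 6 pairs, from 0.86 in the mock pair to 2.48 in plastic line 889, while the mitosis median went from 0.03 to -1.40.

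The rest of the pathway was described by lists. Of 26 other G1 genes tested on plastic, 1 was higher and 2 were lower at an unadjusted p under 0.05, and of 27 in BME, 1 was higher and 1 was lower. These 3 of 26 and 2 of 27 stand beside 8.29% and 4.09% of all genes, so they lie near the background. The higher gene in both was Cdkn2d. Cks1b, the cofactor with which SKP2 marks p27 for degradation, was at 40.2 against 89.6, 31.7 against 79.3 and 41.2 against 105.6 FPKM, dox against untreated, in plastic lines 560, 700 and 889 (limma change -1.26, SE 0.20, unadjusted p = 0.000578, adjusted p = 0.162). In BME it was at 34.5 against 62.3 FPKM in line 700 and 75.2 against 70.9 FPKM in line 889 (-0.28, adjusted p = 0.959). Skp2 itself was at -0.18 on plastic and -0.46 in BME (adjusted p = 0.888 and 0.959; -0.29 over the same-line pairs in BME). E2f7, a repressive E2F, was at -0.85 on plastic (unadjusted p = 0.0482, adjusted p = 0.599), and Rbl2, which encodes the RB relative p130, at -0.46 in BME (unadjusted p = 0.0299, adjusted p = 0.959; -0.30 over the same-line pairs).

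For cyclin E, CDK2, RB and E2F1, no test passed and every interval included 0. On plastic the change was -0.19 for Ccne1 (95% interval -0.80 to 0.41), -0.0011 for Ccne2 (-0.85 to 0.85), 0.18 for Cdk2 (-0.28 to 0.63), 0.31 for Rb1 (-0.67 to 1.28) and -0.29 for E2f1 (-0.82 to 0.23). In BME these genes were at 0.21, -0.16, -0.36, 0.19 and -0.44 in the same order, and the means of the 2 same-line pairs were 0.065, -0.11, -0.15, 0.19 and -0.21. Myc, the proliferative transcription factor repressed by TGFβ in many epithelia, was at -0.29 on plastic (-0.78 to 0.21) and -0.25 in BME (-1.11 to 0.61). It was lower with dox in 5 of 5 pairs, by values from -0.56 to -0.014, beside 8.06% of all genes.

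Since Cdkn1a is best known as a p53 target, 27 other p53 targets were counted. On plastic 1 was higher and 3 were lower at an unadjusted p under 0.05, with a median of -0.11, and in BME 1 was higher and none was lower, with a median of -0.10. Of all genes, 4.56% were higher and 3.73% lower on plastic, and 2.62% were higher and 1.47% lower in BME, so 1 of 27 in BME is near the background. The pairs went opposite ways, with 21 of 27 targets higher in BME line 889 (median 0.22) and 16 in plastic line 560 (0.18), but 20 lower in BME line 700 (-0.16) and in plastic line 889 (-0.25) and 17 lower in plastic line 700 (-0.14). Of all genes tested, 6338 of 12996 were higher in BME line 889 and 6124 of 12333 in plastic line 560. In BME line 700, 6611 of 12996 were lower, and in plastic lines 889 and 700, 6043 and 6169 of 12333. The target higher at an unadjusted p under 0.05 in both environments was Cd82, a tetraspanin known as a metastasis suppressor. It was at 192 against 102, 269 against 72.6 and 386 against 64.8 FPKM, dox against untreated, in plastic lines 560, 700 and 889 (limma change 1.78, SE 0.32, unadjusted p = 0.000997, adjusted p = 0.203). In BME it was at 160 against 104 FPKM and 168 against 102 FPKM in lines 700 and 889 (0.68, SE 0.14, unadjusted p = 0.00249, adjusted p = 0.959). Mdm2, the p53-induced inhibitor of p53, was at 0.28 on plastic and -0.10 in BME (adjusted p = 0.942 and 0.973), and the mean of its same-line pairs in BME was 0.078. Bbc3 and Aen, both pro-apoptotic targets, were at -0.61 each on plastic (unadjusted p = 0.0259 and 0.0479), and the third lower target was Gdf15, a secreted stress factor named after its value was seen (-1.15, unadjusted p = 0.0481). In BME Eda2r and Sesn1 were at -0.62 and -0.48 (unadjusted p = 0.0554 and 0.103). Trp53 was at -0.47 on plastic and -0.33 in BME (adjusted p = 0.649 and 0.959).

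Of 18 regulators of the inhibitor genes, none passed an unadjusted p of 0.05 on plastic and 1 was lower in BME, namely Foxo3, a factor that activates Cdkn1b (-0.38, unadjusted p = 0.0449, adjusted p = 0.959). Beside 8.29% of all genes past this p on plastic and 1.47% lower in BME, counts of 0 and 1 of 18 do not set the list apart. Foxo1 was at -0.32 there (unadjusted p = 0.0534). Ezh2 and Cbx7, Polycomb proteins that repress the Cdkn2a locus, were at 0.59 and -0.34 on plastic and at -0.15 and -0.70 in BME (adjusted p = 0.697 and 0.743, then 0.973 and 0.959), and the mean of the same-line pairs in BME was 0.012 for Ezh2 and -0.32 for Cbx7.

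**Figure D5:**
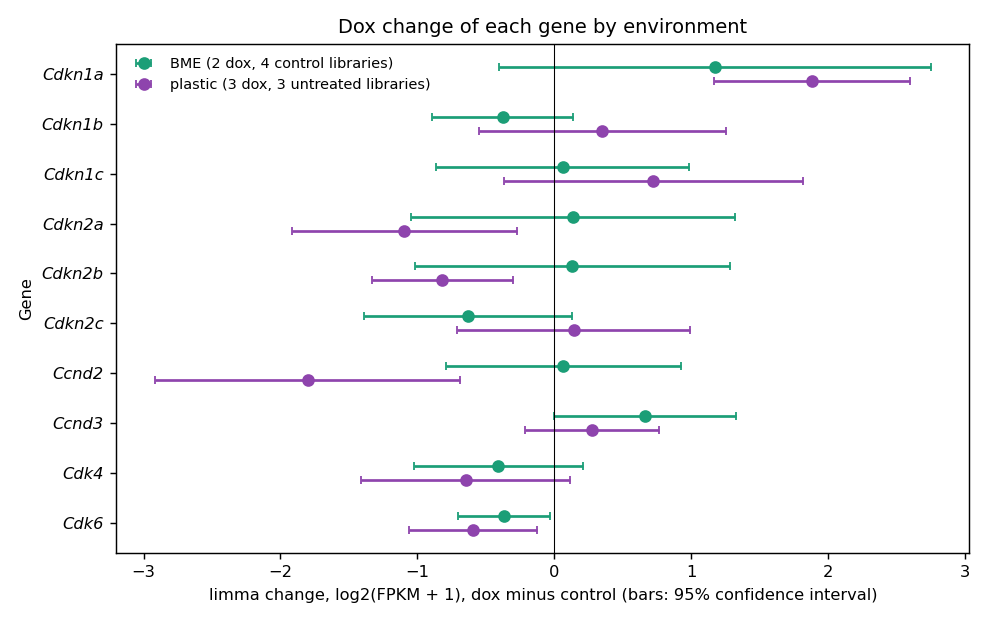
Limma change in log2(FPKM + 1), dox minus control, with its 95% interval, for BME (green, 2 dox against 4 control libraries) and plastic (purple, 3 against 3). On plastic the intervals of Cdkn1a, Cdkn2a, Cdkn2b, Ccnd2 and Cdk6 do not include 0, and in BME that of Cdk6 does not. These intervals are from the fit without the organoid line as a block.

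The dox change was compared between environments by an interaction term. The difference, plastic minus BME, was 0.71 for Cdkn1a (95% interval -0.95 to 2.38), 0.73 for Cdkn1b (-0.30 to 1.75), -1.23 for Cdkn2a (-2.64 to 0.17) and -0.95 for Cdkn2b (-2.14 to 0.25), each with an adjusted p of 1.00. Within lines the differences were nearer 0, at 0.06 for Cdkn1a, 0.48 for Cdkn1b, -0.57 for Cdkn2a and -0.52 for Cdkn2b. These intervals include no difference as well as differences of a size like the changes themselves, so the libraries do not show that a change was alike in both environments.

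For each gene, the genes with the most similar pattern were found by Pearson's r over the 12 libraries after centring each table, which is a description over libraries that share lines and treatment. Cdkn1a was closest to Pax9 (0.95), Bri3bp (0.95) and Slc37a3 (0.94). Cdkn1b was closest to Mast3 (0.95), Sorcs2 (0.93) and Rasal1 (0.93), and Cdkn1c to Plpp5 (0.97), Psmd7 (0.94) and Gla (0.93). Among INK4 genes, Cdkn2a was closest to Arhgap27 (0.96), Ly6a (0.93) and Pax8 (0.92), Cdkn2b to Npnt (0.93), Thnsl1 (0.89) and Zfp296 (0.88), and Cdkn2c to Gigyf1 (0.89), Hdac6 (0.88) and Tead2 (0.86). Ccnd2 was closest to Lrrk1 (0.95), Uck2 (0.93) and Pak6 (0.93), and Ccnd3 to 3110099E03Rik (0.95), Ano10 (0.94) and Crat (0.94). Cdk4 was closest to Prmt1 (0.99), Trim28 (0.97) and Lsm7 (0.96), and Cdk6 to Ddx51 (0.94), Ncl (0.91) and Cluh (0.89).

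Some values are uncertain for a reason of annotation. Ccnd2 overlaps the lincRNA 9330179D12Rik, Ccnd3 overlaps Bysl, Cdk4 overlaps Tspan31 and Cdk6 overlaps Gm17590, each on the opposite strand. Whether the libraries kept strand is not given in the sources used here, so shared reads cannot be told apart.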

How the data were processed

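RNA was extracted from organoids and sequenced in 12 libraries. Per the labels the authors used kallisto, DESeq2 and mm9, with no versions given, and deposited FPKM values in 1 table per environment, each normalized on its own. Levels were therefore not tested across tables. The deposited comparison tables of the authors (fold changes and p-values of dox against no dox) were not used.

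A mean FPKM of 0.5 or more was required, and values were compared as log2(FPKM + 1) with limma 3.58.1 in R 4.3.3 (eBayes with trend, two-sided, Benjamini-Hochberg over 12996 genes in BME and 12333 on plastic), after a test on simulated data. A pseudocount of 1 understates changes of low genes. Dox (n = 2) was compared with 4 control libraries in BME, the mock library among them as the study counts it, although its label gives dox. On plastic, dox (n = 3) was compared with 3 untreated libraries. The difference between environments was an interaction over 11977 genes. Organoid lines are separate cultures. On plastic each arm held 3 lines, and the p-values of the main fit measure the spread among lines within an arm. In the BME control arm the mock library and its untreated partner share a line, so the 4 libraries are not 4 separate lines. Lines also recur in both arms, and some in both environments. The main fits, the interaction included, treat all these libraries as independent, so their p-values in BME and for the difference do not measure the spread among separate lines. Deviations of same-line libraries from their group means correlated at 0.7 and 0.676 in BME and at 0.461, 0.612 and 0.247 on plastic, so lines pair the libraries, and a fit with the line as a block was run beside each comparison.

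Depth was rebuilt from steps between low FPKM values (92.6% to 96.9% whole within 0.05) and is approximate. Alternatives were another pseudocount, no filter or a higher one, rescaled libraries, the block, limma-voom on rebuilt reads, leaving out each library and other placements of the mock library.

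Besides the 10 genes, those named were the 3 smallest unadjusted p per environment in the lists of other G1 genes, p53 targets and inhibitor regulators, the 2 smallest on plastic among S phase and mitosis genes, 12 fixed genes and the most similar genes. The genes and lists were chosen with earlier results of these data known. Python 3.11.15 was used for summaries.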

Additional observations from a re-analysis of the deposited data

Results flagged for a closer look

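Cdkn2b was at 55.0 FPKM in the untreated library of line 700 in BME, above the other 3 control libraries (18.1 to 24.0 FPKM), and its gap to the nearest was 0.840 of the range of the group by Dixon's criterion. Of 10 such values checked, 1 met the criterion, and chance gives about 1 in 20.

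Cdkn1b was lower with dox in both BME pairs and higher in all 3 plastic pairs. The difference of its dox change, plastic minus BME, was 0.73 (SE 0.46, limma interaction, unadjusted p = 0.146, adjusted p = 1.00), so the opposite directions did not pass the test of the difference. Within lines the difference was 0.48.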

How the results depend on the processing

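The replicate block, with libraries paired by organoid line, turned the sign of the BME change for Cdkn1c (-0.0699), Cdkn2a (-0.53), Cdkn2b (-0.30) and Ccnd2 (-0.0692), gave 0 called genes in BME in place of 3 and 7 on plastic in place of 4, and changed no call among the 10 genes. With the mock library left out, the BME change was -0.0586 for Cdkn1c, -0.14 for Cdkn2a and -0.0486 for Cdkn2b. With it counted as dox, an alternative chosen after seeing the data, the values were -0.20, -0.47 and -0.27, with -0.0363 for Ccnd2, and both placements gave 0 called genes. On rebuilt reads limma-voom put Ccnd2 at -0.0096 in BME and called 0 genes in either environment. Restricted to lines 700 and 889, the difference between environments was 0.0795 for Ccnd3 and 0.0789 for Cdk4.

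Leaving out 1 untreated or dox library gave BME changes of -0.34 to 0.46 for Cdkn1c, -0.0204 to 0.39 for Cdkn2a, -0.29 to 0.55 for Cdkn2b and -0.23 to 0.37 for Ccnd2. It gave -0.24 to 0.39 for Cdkn2c on plastic, and differences of -0.0061 to 1.43 for Cdkn1a and -0.59 to 0.11 for Cdk4. The number of called genes ranged from 0 to 37 in BME and from 0 to 55 on plastic (both highest without dox line 700, which in BME leaves a dox arm of 1 library, assumed to vary like the 4 controls that alone give the spread), and was 2 on plastic without dox line 889.

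With a pseudocount of 0.1, 1 gene was called in BME and 10 on plastic, and the S phase median of plastic line 889 was -0.91. A mean FPKM of at least 2 gave 0 called genes in BME and left Cdkn1c untested on plastic, and no filter gave 0 on plastic and 5 for the difference in place of 0. The cause of these moves was not tested. The Cdkn1a change on plastic was between 1.70 and 2.16 over 12 alternatives, with an adjusted limma p of 0.104 to 0.672. Not all of these could move it. Each plastic line has both arms, so the block returns the same change, and a filter leaves a gene's own values as they are. Rescaling could move it little, since the library medians were already near equal. With 2 or 3 dox libraries, and under 5 FPKM in most libraries for Cdkn1c, small changes were not detectable. Large ones could be missed too, as limma changes of 1.88 for Cdkn1a and 2.54 for Cdkn2d on plastic did not pass (adjusted p = 0.157 and 0.206). A test that was not passed is therefore not evidence of no change.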

Other observations

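The mock library of line 682 was at 10.3 FPKM of Smad4 against 8.88 FPKM in its untreated partner. Its Cdkn2d level was 2.53 times and its Cdkn1a level 1.82 times that of the partner, and Ccnd3 was at 46.6 against 32.3 FPKM, while Mki67 was at 35.5 against 19.3 FPKM. What this library carried was not established, so these are values of 1 pair.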
